A study of Mus musculus with 11 samples.

Results

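Imprinted genes are known for expression from the maternal or the paternal copy, in at least some tissues or transcripts. Here 46 of them were followed in mouse granulosa cells, which enclose the oocyte within the ovarian follicle. The 46 were taken from a list of known imprinted genes by Entrez gene ID and grouped by the imprinted cluster in which they lie. All 46 had a row in the RNA table of 24809 gene IDs and in the H3K4me3 table of 24541. Granulosa cells of C57BL/6 mice treated for 48 h with equine chorionic gonadotropin (eCG), a hormone with follicle-stimulating activity in mice, were set against cells of untreated mice of the same strain, called 0 h. RNA was sequenced from cells collected by puncture of follicles on postnatal day 21, with 3 libraries at 48 h and 3 at 0 h. Chromatin immunoprecipitation sequencing (ChIP-seq) of H3K4me3, the trimethylated histone H3 found at active promoters, gave 2 libraries at 48 h and 2 at 0 h, without a labelled age. The labels name eCG and describe it as FSH, no untreated group was collected at 48 h, and treatment and time cannot be told apart. The libraries of a group are described as biological replicates, without a statement of how many animals each one holds.

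Imprinted genes lie in clusters that share an imprinting control region, a stretch of DNA methylated on 1 parental copy only, often under a long non-coding RNA that keeps neighbouring genes silent on the same copy. Many act on growth: paternally expressed genes such as Igf2 tend to promote it and maternally expressed genes such as Igf2r, Grb10 and Cdkn1c tend to restrain it. In the ovary, Gnas carries the signal of the FSH and LH receptors to adenylyl cyclase. The counts add both parental copies of a gene, so they say nothing on which copy was read.

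The RNA libraries held 12013849 to 26343971 counts and the H3K4me3 libraries 11989769 to 17968033, and the values given are TMM-scaled CPM (counts relative to library size). The RNA of the granulosa markers summed to 41648 to 42571 CPM at 48 h and to 16783 to 22486 CPM at 0 h, with 9 of 12 higher and 2 lower. Markers of other cells were also present. All 10 endothelial markers were higher at 48 h, with a summed level of 208 to 659 CPM at 48 h and 107 to 112 CPM at 0 h. Of 12 tested oocyte markers 6 were lower, with a summed level of 64.6 to 152 CPM at 48 h and 196 to 224 CPM at 0 h. Theca and stroma markers summed to 2555 to 6321 CPM at 48 h and to 2473 to 3038 CPM at 0 h, with 3 of 13 higher and 3 lower. The 48 h replicate 1 library stood apart, with the highest endothelial and stromal sums. Its oocyte sum, 152 CPM, was also the highest at 48 h, against 64.6 and 66.7 CPM in replicates 2 and 3. Its smooth muscle and immune sums were the highest at 48 h too. The 3 tested of 7 red cell markers were higher, 1 of 6 smooth muscle markers was higher, and immune markers summed to 149 to 252 CPM at 48 h and 189 to 287 CPM at 0 h. The theca enzyme Cyp17a1 averaged 825 CPM at 48 h and 809 CPM at 0 h, while Insl3, which defines theca cells, averaged 0.484 CPM at 48 h and 1.21 CPM at 0 h. In bulk RNA, fewer cells of a type and less RNA per cell cannot be told apart, and the part of these cells in the results on imprinted genes was not tested.

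After 48 h of eCG the imprinted genes moved in both directions. H19, Peg10, Dlk1, Plagl1 and Nnat carried the largest falls, and Kcnq1, H13, Nap1l5 and Igf2r the largest rises. Of the 46 genes, 38 had enough RNA counts to be tested, and 19 of them (50%) were called at an adjusted p under 0.05 by edgeR's quasi-likelihood test, 9 higher and 10 lower. Over all 14401 genes tested, 31.8% were called, 16.0% higher and 15.8% lower. The median log2 fold change was 0.00 over the 38 genes and -0.03 over all genes tested, and their fold changes ran from -1.98 to 1.03. The groups did not overlap in 21 of the 38, with 9 higher and 12 lower at 48 h, while over all genes the shares without overlap were 22.1% higher and 25.8% lower. Without the 48 h replicate 1 library 21 were called, 10 higher and 11 lower. Calls over the whole table rose too, to 5345 of 14816 genes tested, against 4585 of 14401 with every library. Scaled by library size alone, 7 were higher and 13 lower, which put the all-gene median at -0.20. Of 16 tested genes listed as maternal 4 were higher and 4 lower, and of 21 listed as paternal 4 were higher and 6 lower. The copy read in granulosa cells was not measured.

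**Figure D1:**
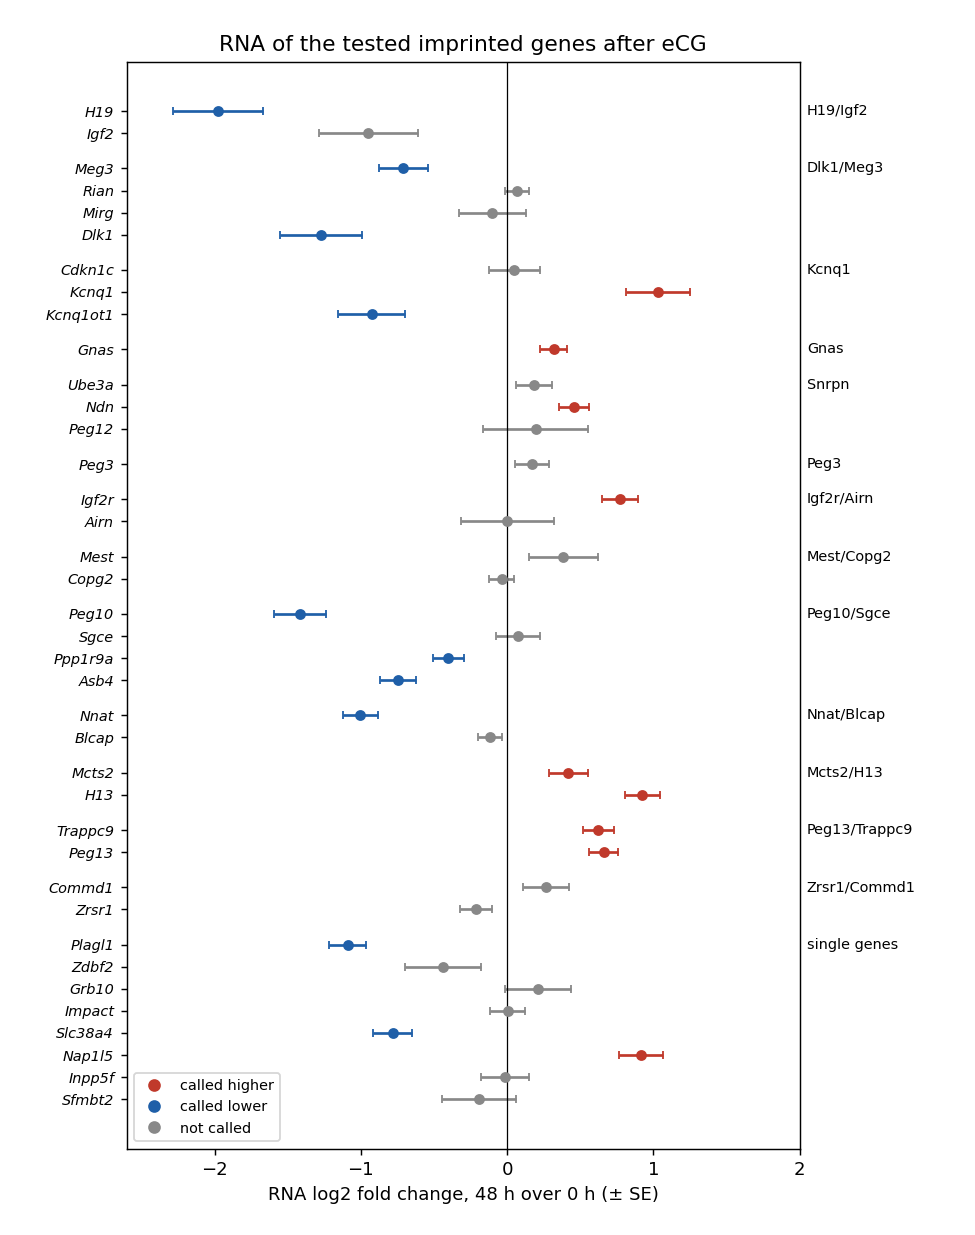
The x axis gives the RNA log2 fold change, 48 h over 0 h, with its SE, for the 38 imprinted genes tested, grouped by cluster down the page. Red points were called higher (9), blue points lower (10) and grey points were not called; H19 lies farthest left at -1.98 and Kcnq1 farthest right at 1.03.

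In the H19/Igf2 locus on chromosome 7, H19 fell and Igf2 did not pass the test. H19 (gene ID 14955; chr7:142575530-142578146), a maternal long non-coding RNA, had 5.75, 2.2003 and 4.79 CPM at 48 h, against 14.8, 18.7 and 14.8 CPM at 0 h. All 48 h libraries lay below all 0 h libraries, and H19 fell by 1.98 on the log2 scale (SE 0.31, adjusted p = 0.00222). The call was kept in each of the 13 settings tried. Igf2 (gene ID 16002; chr7:142650768-142666816), the growth factor expressed from the paternal copy, had 4.83, 2.08 and 2.18 CPM at 48 h, against 5.59, 6.82 and 4.91 CPM at 0 h. The groups did not overlap, but the difference missed the threshold (log2 -0.95 ± 0.34 SE, adjusted p = 0.0607). The highest 48 h values of H19 and Igf2 came from replicate 1, and without that library Igf2 passed (log2 -1.44, adjusted p = 0.00367). Replicate 1 held the most endothelial and stromal RNA, and the most oocyte RNA of the 48 h libraries. Over all settings the adjusted p of Igf2 was 0.00367 to 0.218. The ratio of H19 to Igf2 counts within a library was 1.19, 1.06 and 2.2 at 48 h, against 2.64, 2.75 and 3.02 at 0 h, so H19 was lower at 48 h relative to Igf2 too.

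H19 is also the precursor of the microRNA miR-675, whose mature forms are shown because they are the defined products of the transcript that fell most. Neither they nor the hairpin were measured by these libraries as small RNA. The capitals mark the seed, bases 2 to 8 from the 5′ end, in the RefSeq sequences of GRCm38.p6, which lie on the minus strand at chr7:142577112-142577133 and chr7:142577078-142577099. The seeds of the 5p and the 3p form differ.
mmu-miR-675-5p: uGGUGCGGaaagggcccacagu
mmu-miR-675-3p: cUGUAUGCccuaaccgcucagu

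Of 12 genes for IGF2 partners and IGF2 mRNA-binding proteins, 11 were tested, with 2 higher and 3 lower at 48 h (45.5% called, against 31.8% of all genes). Igfbp3, an IGF-binding protein, had 35.4, 7.60 and 11.6 CPM at 48 h, against 2.96, 5.88 and 3.54 CPM at 0 h (log2 2.11, adjusted p = 0.0196). Igfbp2, of the same family, was called higher although its groups overlapped, with 118 to 185 CPM at 48 h and 86.1 to 122 CPM at 0 h (adjusted p = 0.0477). Irs2, an adaptor of the insulin and IGF1 receptors, was lower, with 13.7 to 16.7 CPM at 48 h and 27.8 to 37.9 CPM at 0 h (log2 -1.09). The IGF2 mRNA-binding proteins Igf2bp2 (log2 -1.34) and Igf2bp3 (log2 -1.12) were lower too, Igf2bp3 at a mean of only 0.392 CPM at 48 h and 0.822 CPM at 0 h. As with Igf2, the highest 48 h value of Igfbp3 was in replicate 1.

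In the Dlk1/Meg3 cluster on chromosome 12, the paternal coding gene and the first of the maternal non-coding RNAs fell, while the non-coding RNAs farther along did not pass the test. Dlk1 (gene ID 13386; chr12:109452485-109463336), a transmembrane protein related to the Notch ligands, had 4.91, 2.48 and 2.35 CPM at 48 h, against 7.78, 7.36 and 8.18 CPM at 0 h. All 48 h values were below all 0 h values (log2 -1.27 ± 0.28 SE, adjusted p = 0.0102). The call was lost without 48 h replicate 2 (adjusted p = 0.0511). Meg3 (gene ID 17263; chr12:109540996-109571729), a long non-coding RNA, had 240, 157 and 216 CPM at 48 h, against 290, 328 and 383 CPM at 0 h. Its groups did not overlap either (log2 -0.71 ± 0.17 SE, adjusted p = 0.0128), and its call was lost without 0 h replicate 3 (adjusted p = 0.0586). Over all settings the adjusted p was 7.24e-04 to 0.0511 for Dlk1 and 4.34e-04 to 0.0586 for Meg3.

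Rian (gene ID 75745; chr12:109603945-109661716), which hosts small nucleolar RNAs, had 245, 227 and 235 CPM at 48 h, against 221, 233 and 221 CPM at 0 h. Its groups overlapped (log2 0.07 ± 0.08 SE, adjusted p = 0.569). Mirg (gene ID 100040724; chr12:109734981-109749458), which hosts microRNAs, had 7.84 to 9.81 CPM at 48 h and 6.24 to 11.5 CPM at 0 h (log2 -0.10, adjusted p = 0.77). The ratio of Meg3 to Rian counts was 0.979, 0.693 and 0.920 at 48 h, against 1.31, 1.41 and 1.74 at 0 h. All 48 h ratios lay below all 0 h ratios, although both RNAs are known to come from the maternal copy of 1 cluster. Rtl1, a retrotransposon-derived gene known for its role in placenta, was not tested, at 0 to 0.307 CPM at 48 h and 0 to 0.0528 CPM at 0 h.

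All 8 Notch receptors, ligands and targets listed beside Dlk1 were tested, with 3 higher and 3 lower, where 16.0% of all genes were higher and 15.8% lower. Notch1 (log2 1.44), Notch3 (1.51) and the ligand Dll4 (1.68) were higher at 48 h, and all 3 had their highest value in 48 h replicate 1. Notch3 had 58.4, 17.4 and 24.1 CPM at 48 h, against 9.32, 12.25 and 13.03 CPM at 0 h. The Notch target genes Hes1 (log2 -0.56), Hey1 (-0.77) and Heyl (-0.97) were lower. Heyl had 36.3, 47.2 and 42.4 CPM at 48 h, against 74.8, 69.7 and 102 CPM at 0 h, without overlap.

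The Kcnq1 cluster on chromosome 7 held an opposite pair. Kcnq1ot1 (gene ID 63830; chr7:143213111-143296547), the paternal antisense RNA that silences the cluster on its own copy, had 19.2, 17.0 and 33.8 CPM at 48 h, against 38.5, 47.3 and 45.3 CPM at 0 h. It was lower at 48 h without overlap (log2 -0.93 ± 0.23 SE, adjusted p = 0.0163). Kcnq1 (gene ID 16535; chr7:143106877-143427050), a potassium channel inside which Kcnq1ot1 lies, had 5.83, 4.60 and 4.96 CPM at 48 h, against 2.44, 2.82 and 2.22 CPM at 0 h. It was higher at 48 h without overlap (log2 1.03 ± 0.22 SE, adjusted p = 0.008), in each of the 13 settings. The ratio of Kcnq1 to Kcnq1ot1 counts was 0.303, 0.271 and 0.147 at 48 h, against 0.0634, 0.0595 and 0.0489 at 0 h. The use of strand in the counting is not given in the sources used here, and reads of the overlapping genes may be split between them. The call of Kcnq1ot1 was lost without 0 h replicate 2 (adjusted p = 0.0557) or 0 h replicate 3 (0.0589), within a range of 9.91e-04 to 0.0589 over all settings.

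The other genes of the cluster were not called or not tested. Cdkn1c, the cell cycle inhibitor p57, had 6.36, 8.52 and 8.45 CPM at 48 h, against 8.29, 6.82 and 7.49 CPM at 0 h. Its groups overlapped (log2 0.05 ± 0.18 SE, adjusted p = 0.851). Phlda2, which limits placental growth, and the transporter gene Slc22a18 were not tested, at up to 0.0800 and 0.690 CPM at 48 h and up to 0.296 and 1.19 CPM at 0 h.

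Igf2r (gene ID 16004; chr17:12682406-12769706), the receptor that clears IGF2 and sorts lysosomal enzymes, had 569, 444 and 431 CPM at 48 h, against 268, 285 and 293 CPM at 0 h. Every 48 h library was above every 0 h library, and Igf2r rose (log2 0.77 ± 0.12 SE, adjusted p = 0.0025). Its paternal antisense RNA Airn (gene ID 104103; chr17:12741311-12859884) had 2.22, 1.36 and 2.53 CPM at 48 h, against 2.19, 1.68 and 2.11 CPM at 0 h. Those groups overlapped (log2 0.00 ± 0.32 SE, adjusted p = 0.995). Airn overlaps Igf2r, and reads of the overlap may not be told apart.

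Gnas (gene ID 14683; chr2:174284320-174346744), the stimulatory G protein subunit of the gonadotropin receptors, had 799, 869 and 808 CPM at 48 h, against 687, 640 and 660 CPM at 0 h. The groups did not overlap, and Gnas was called higher (log2 0.32 ± 0.09 SE, adjusted p = 0.0323). The call was lost without replicate 2 or 3 of 0 h (adjusted p 0.11 and 0.102) and without replicate 2 or 3 of 48 h (0.0928 and 0.0617). It was lost with no filter (0.055). Scaled by library size alone, its log2 fold change was 0.15 (adjusted p = 0.227), the highest p over all settings. The gene also makes other imprinted transcripts, which the counts do not separate.

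Of 8 genes around Gnas in the gonadotropin signal, 7 were higher at 48 h and 1 was not called, where 16.0% of all genes were higher. The list was chosen with earlier results of these data known, so this count is a description and not a test. Prkar2b, a regulatory subunit of protein kinase A, had 3196, 4014 and 3914 CPM at 48 h, against 1938, 1564 and 1645 CPM at 0 h (log2 1.11, adjusted p = 8.99e-04). The adenylyl cyclases Adcy3 (log2 0.58) and Adcy9 (0.42), the G protein subunit Gng2 (0.81) and the kinase subunit Prkaca (0.30) were higher as well. The remaining calls were the hormone receptors Fshr (log2 1.32) and Lhcgr (3.73).

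In the Snrpn cluster on chromosome 7, Ndn alone of the 3 tested genes was called. Ndn (gene ID 17984; chr7:62348277-62349928), a paternal gene of the MAGE family, had 37.3, 36.2 and 31.5 CPM at 48 h, against 27.5, 24.3 and 24.9 CPM at 0 h. The groups did not overlap (log2 0.46 ± 0.10 SE, adjusted p = 0.00949). Ube3a, the ubiquitin ligase of the cluster and listed as maternal, had 72.8, 94.0 and 103 CPM at 48 h, against 79.5, 79.1 and 78.9 CPM at 0 h. Its lowest 48 h value was in replicate 1, below all 0 h values, and the difference missed the threshold (log2 0.19, adjusted p = 0.272). Without that library Ube3a passed (log2 0.31, adjusted p = 0.0104), within a range of 0.0104 to 0.921 over all settings. Peg12, a FRAT family gene, was not called (log2 0.20, adjusted p = 0.709), and Magel2, a MAGE family gene like Ndn, was not tested at 0 to 0.153 CPM at 48 h and up to 0.0643 CPM at 0 h.

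Snrpn itself, a spliceosome protein of neurons, held 2 RNA counts over the 6 libraries and was not tested. Snurf, which lies within the span of Snrpn, held 0 RNA counts, and Snhg14, which overlaps Snrpn on the same strand, held 644. How reads shared by overlapping genes were counted is not given, so these counts do not show that Snrpn is silent. In the Peg3 cluster, Peg3, a paternal zinc finger gene, had 15.7, 19.04 and 16.5 CPM at 48 h, against 15.04, 15.8 and 14.9 CPM at 0 h (log2 0.17, adjusted p = 0.3). Its neighbours Usp29, a ubiquitin peptidase gene, and Zim1, a zinc finger gene, lay at up to 0.230 and 0.460 CPM at 48 h and up to 0.257 and 0.395 CPM at 0 h, and were not tested.

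The Peg10/Sgce cluster on chromosome 6 held the largest called fall of a paternal gene. Peg10 (gene ID 170676; chr6:4747306-4760517), derived from a retrotransposon, had 52.2, 43.0 and 45.5 CPM at 48 h, against 160, 121 and 94.6 CPM at 0 h. The 48 h libraries lay close together, well below the scattered 0 h libraries (log2 -1.42 ± 0.18 SE, adjusted p = 9.73e-04). Sgce (gene ID 20392; chr6:4674350-4747204), epsilon-sarcoglycan, starts beside Peg10 and is also paternal, and it had 86.4, 68.6 and 65.1 CPM at 48 h, against 83.2, 57.7 and 68.6 CPM at 0 h. Its groups overlapped (log2 0.07 ± 0.15 SE, adjusted p = 0.746). The ratio of Peg10 to Sgce counts was 0.604, 0.627 and 0.699 at 48 h, against 1.93, 2.09 and 1.38 at 0 h, without overlap.

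Both maternal genes of that cluster were lower at 48 h. Asb4 (gene ID 65255; chr6:5383386-5433022), an ankyrin repeat protein of ubiquitin ligases, had 14.8, 12.9 and 13.3 CPM at 48 h, against 25.9, 21.9 and 20.8 CPM at 0 h (log2 -0.74 ± 0.12 SE, adjusted p = 0.00284). Ppp1r9a (gene ID 243725; chr6:4902872-5165661), the phosphatase regulator neurabin, had 174, 142 and 154 CPM at 48 h, against 188, 217 and 216 CPM at 0 h (log2 -0.40 ± 0.11 SE, adjusted p = 0.02). Neither gene's groups overlapped. The call of Ppp1r9a was lost without replicate 2 or 3 of 0 h (0.0785 and 0.0853) and without replicate 2 or 3 of 48 h (0.103 and 0.0953), within a range of 0.0038 to 0.103 over all settings.

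Several imprinted genes lie inside a host gene, and host and guest did not always move alike. Nnat (gene ID 18111; chr2:157560078-157562525), the small membrane protein neuronatin, had 57.2, 58.1 and 58.7 CPM at 48 h, against 117, 96.7 and 135 CPM at 0 h (log2 -1.003 ± 0.12 SE, adjusted p = 7.69e-04). Its host Blcap had 47.8, 47.3 and 46.8 CPM at 48 h, against 52.8, 47.7 and 53.1 CPM at 0 h (log2 -0.11 ± 0.08 SE, adjusted p = 0.313). The Nnat to Blcap ratio was 1.20, 1.23 and 1.25 at 48 h, against 2.22, 2.03 and 2.55 at 0 h, with no overlap. H13 (gene ID 14950; chr2:152669422-152708668), signal peptide peptidase, had 470, 399 and 363 CPM at 48 h, against 207, 208 and 233 CPM at 0 h (log2 0.93 ± 0.12 SE, adjusted p = 9.73e-04). Mcts2 (gene ID 66405), a paternal retrogene in an intron of H13, had 12.2, 14.0 and 11.7 CPM at 48 h, against 9.90, 8.84 and 9.71 CPM at 0 h (log2 0.42 ± 0.13 SE, adjusted p = 0.0418). Both were higher without overlap, but the H13 to Mcts2 ratio was higher at 48 h, at 38.5, 28.4 and 31.1, against 21.0, 23.5 and 24.0 at 0 h. The call of Mcts2 was lost without any of 5 libraries, 0 h replicates 1 (0.0612), 2 (0.124) and 3 (0.0918) and 48 h replicates 2 (0.143) and 3 (0.0583), and also by library size alone (0.165) and with no filter (0.0603), within a range of 0.0343 to 0.165 over all settings.

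Trappc9 and the RNA inside it rose together. Trappc9 (gene ID 76510; chr15:72589620-73061238), a subunit of the TRAPP trafficking complex, had 131, 171 and 158 CPM at 48 h, against 104, 97.5 and 96.9 CPM at 0 h (log2 0.62 ± 0.11 SE, adjusted p = 0.00333). Peg13 (gene ID 353342; chr15:72805602-72810324), a paternal non-coding RNA in an intron of Trappc9, had 116, 134 and 128 CPM at 48 h, against 80.4, 71.8 and 87.2 CPM at 0 h (log2 0.66 ± 0.10 SE, adjusted p = 0.00186). The Trappc9 to Peg13 ratio overlapped between groups, at 1.13, 1.27 and 1.23 at 48 h and 1.29, 1.36 and 1.11 at 0 h. Mest, a hydrolase-fold protein, had 25.5, 15.3 and 12.5 CPM at 48 h, against 12.3, 14.1 and 14.3 CPM at 0 h (log2 0.38, adjusted p = 0.246). Its 1 high value was again in 48 h replicate 1, and the coatomer gene Copg2, which overlaps it, was not called (log2 -0.04, adjusted p = 0.775). Commd1, a COMM domain protein (log2 0.27, adjusted p = 0.223), and its guest Zrsr1, a splicing factor retrogene (log2 -0.21, adjusted p = 0.167), were not called.

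Counts of 12 neighbouring gene pairs were set as a ratio within each library, which removes the scaling between libraries but compares unlike transcripts, so only its change between groups can be read. In 9 pairs the 48 h and 0 h ratios did not overlap. The share over other gene pairs was not computed, so this count is not read as a trait of imprinted pairs. Of all single genes tested in RNA, 22.1% were higher and 25.8% lower without overlap. Apart from Commd1 and Zrsr1, each of these pairs held a gene called in RNA. Each of these 9 had an exact two-sided permutation p of 0.1, the smallest that 3 against 3 libraries allow, and an adjusted p of 0.133 over the 12 pairs. None could therefore pass the threshold. The ratio of Kcnq1 to Kcnq1ot1 differed most, by 2.01 on the log2 scale, followed by that of Peg10 to Sgce (-1.46), and the ratio of Igf2r to Airn differed by 0.77.

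**Figure D2:**
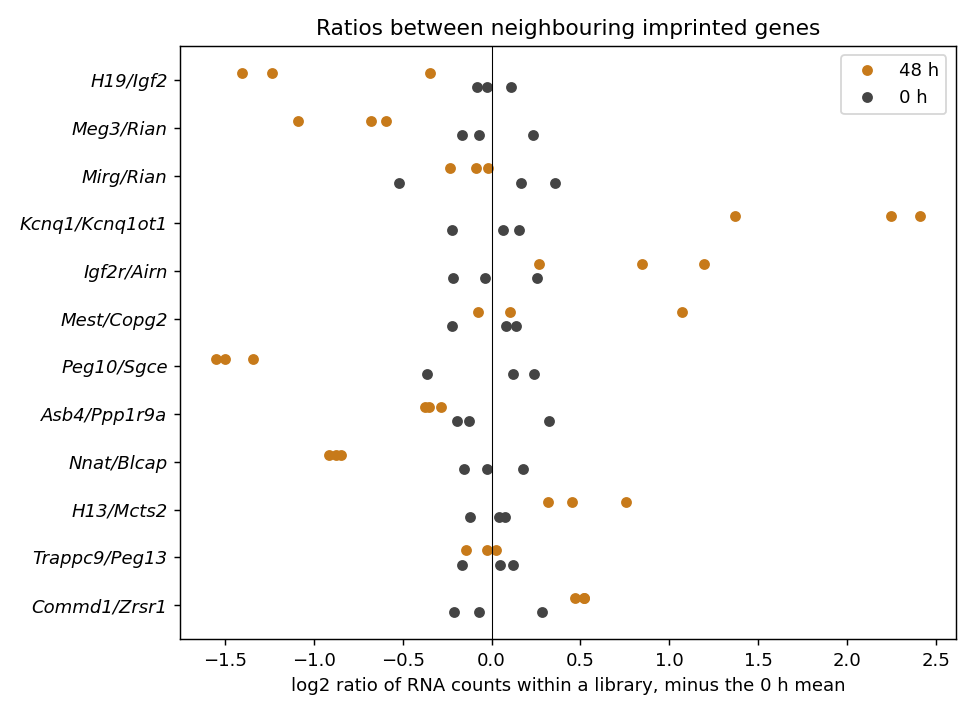
Each row is a pair of neighbouring imprinted genes, and the x axis gives the log2 ratio of their RNA counts in a library, minus the mean of the 0 h libraries (orange 48 h, grey 0 h, 3 libraries each). Orange and grey points are apart in 9 of the 12 pairs, and they overlap for Mirg/Rian, Mest/Copg2 and Trappc9/Peg13.

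Among imprinted genes outside these clusters, Plagl1, Slc38a4 and Nap1l5 were called. Plagl1 (gene ID 22634; chr10:13090832-13131694), a zinc finger transcription factor, had 70.2, 79.1 and 78.7 CPM at 48 h, against 193, 143 and 150 CPM at 0 h. It fell without overlap (log2 -1.09 ± 0.12 SE, adjusted p = 6.59e-04). Slc38a4 (gene ID 69354; chr15:96994816-97055956), an amino acid transporter, had 19.2, 15.04 and 13.7 CPM at 48 h, against 27.1, 28.4 and 26.9 CPM at 0 h. It fell without overlap as well (log2 -0.78 ± 0.13 SE, adjusted p = 0.00311). Nap1l5 (gene ID 58243; chr6:58905233-58907126), a retrogene of the nucleosome assembly protein family, had 793, 1060 and 1078 CPM at 48 h, against 580, 451 and 525 CPM at 0 h. It rose (log2 0.91 ± 0.15 SE, adjusted p = 0.00275), and its host gene Herc3 was called higher too (log2 0.52, adjusted p = 0.0249).

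The other single genes were not called. Grb10, an adaptor that inhibits the insulin and IGF1 receptors, had 41.8, 20.6 and 26.9 CPM at 48 h, against 27.6, 23.4 and 25.7 CPM at 0 h (log2 0.21, adjusted p = 0.51). Its highest value was in 48 h replicate 1. Inpp5f, a phosphoinositide phosphatase, had 14.4, 14.3 and 13.7 CPM at 48 h, against 10.9, 17.0 and 14.8 CPM at 0 h (log2 -0.01, adjusted p = 0.964). Impact, an inhibitor of the kinase GCN2 (log2 0.00), the polycomb gene Sfmbt2 (-0.19) and Zdbf2 (-0.44) also missed the threshold. Rasgrf1, a Ras exchange factor, was listed at 0 in all 48 h libraries and at up to 0.106 CPM at 0 h, and was not tested.

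**Figure D3:**
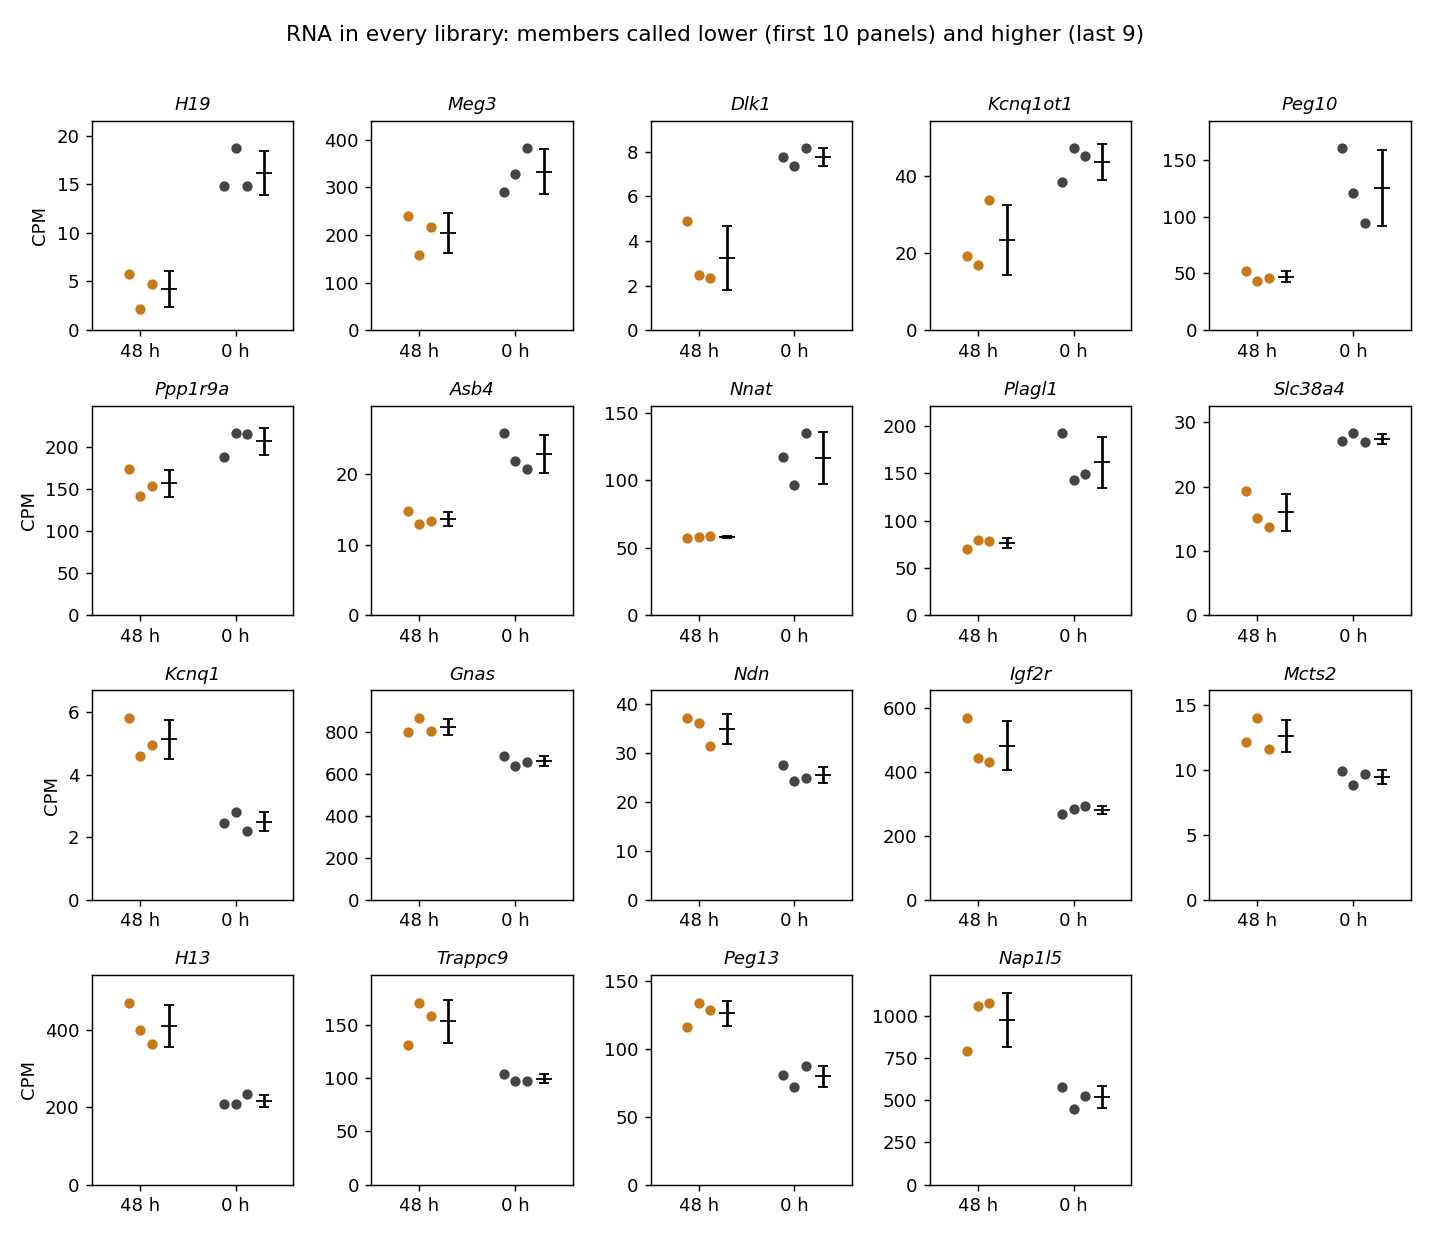
RNA in CPM (y axis, from 0) in each library of the 19 imprinted genes called, with 3 points at 48 h (orange) left of 3 points at 0 h (grey) and the mean with SD beside them. In all 19 panels the 48 h points lie wholly below (10 genes) or wholly above (9 genes) the 0 h points.

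In H3K4me3, Meg3, Inpp5f and Ppp1r9a were called higher and Plagl1 and Slc38a4 lower. All 46 genes had enough counts to be tested, and 5 of them (10.9%) were called. Over all 24476 genes tested, 8.42% were called, 6.35% higher and 2.08% lower, so the share of imprinted genes called lay near that of all genes. Scaled by library size alone, 8 imprinted genes were called, 3 higher and 5 lower, beside 945 genes higher and 862 lower over the whole table. DESeq2 called 2, and leaving out 1 library at a time gave 1 to 7, with 1 (Meg3) without replicate 1 of 0 h, 3 without replicate 2 of 0 h and 2 without replicate 1 of 48 h. The median log2 fold change was 0.04 over the 46 genes and -0.00 over all. Groups did not overlap in 24 of the 46, 13 higher and 11 lower, while the shares over all genes were 26.5% higher and 22.8% lower. The window counted for each gene is not given in the sources used here, so the values are called H3K4me3 counts of a gene.

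On the log2 scale, Meg3 gained the most H3K4me3 of the called genes. It had 45.8 and 45.0 CPM at 48 h, against 33.9 and 30.3 CPM at 0 h. It was higher without overlap (log2 0.49 ± 0.08 SE, adjusted p = 3.06e-05) and was the 1 gene called in each of the 11 settings tried. Ppp1r9a had 90.9 and 79.6 CPM at 48 h, against 68.6 and 69.3 CPM at 0 h (log2 0.31 ± 0.07 SE, adjusted p = 0.00431). Inpp5f had 41.2 and 38.9 CPM at 48 h, against 31.7 and 32.0 CPM at 0 h (log2 0.33 ± 0.08 SE, adjusted p = 0.00689). In both genes the 48 h libraries lay above the 0 h libraries. The call of Ppp1r9a was lost without 0 h replicate 1 (0.283) or 48 h replicate 1 (0.173), within a range of 5.72e-05 to 0.283. That of Inpp5f was lost without 0 h replicate 1 (0.344) or 0 h replicate 2 (0.0613), and by DESeq2 (0.0982), within a range of 0.00126 to 0.344.

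Plagl1 and Slc38a4 lost H3K4me3. Slc38a4 had 15.8 and 22.2 CPM at 48 h, against 26.4 and 24.5 CPM at 0 h (log2 -0.42 ± 0.12 SE, adjusted p = 0.0135). Plagl1 had 48.0 and 50.4 CPM at 48 h, against 56.6 and 58.8 CPM at 0 h (log2 -0.23 ± 0.07 SE, adjusted p = 0.0464). In both genes the 48 h libraries lay below the 0 h libraries. Plagl1 was lost as a call without either 0 h library (0.298 and 0.274 without replicates 1 and 2), without replicate 1 of 48 h (0.184) and by DESeq2 (0.186), and Slc38a4 without 0 h replicate 1 (0.508) or 48 h replicate 1 (0.365) and by DESeq2 (0.129). Over all settings the adjusted p was 0.0113 to 0.298 for Plagl1 and 7.14e-07 to 0.508 for Slc38a4.

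**Figure D4:**
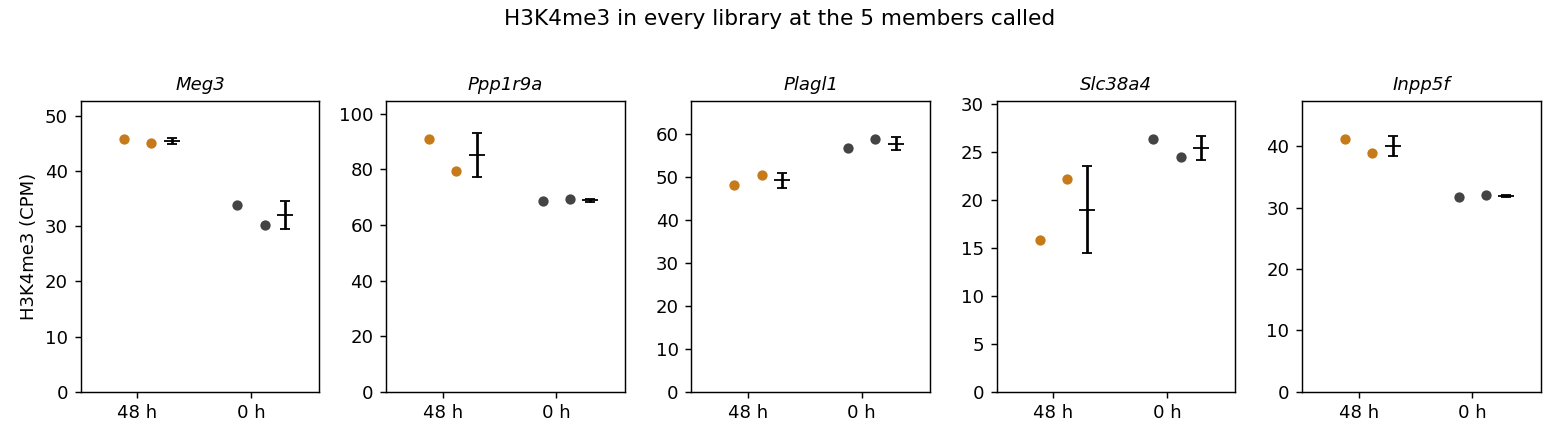
H3K4me3 in CPM (y axis, from 0) in each library of the 5 imprinted genes called, with 2 points at 48 h (orange) left of 2 points at 0 h (grey) and the mean with SD beside them. Meg3, Ppp1r9a and Inpp5f lie higher at 48 h, and Plagl1 and Slc38a4 lie lower.

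The promoters of these 5 genes are shown because they are the imprinted genes at which the promoter mark was called. Each is the 250 bases before a RefSeq start in GRCm38.p6, read along the gene. The windows are chr12:109540746-109540995 on the plus strand for Meg3, chr10:13090582-13090831 on the plus strand for Plagl1, chr6:4903061-4903310 on the plus strand for Ppp1r9a, chr7:128611115-128611364 on the plus strand for Inpp5f and chr15:97055957-97056206 on the minus strand for Slc38a4. Where RefSeq lists several starts, the first listed is shown. Whether the imprinted transcript of a gene starts there, and which start the H3K4me3 counts cover, was not tested. Capitals mark TGCCGC, or GCGGCA as its reverse complement, the motif that the imprint-keeping zinc finger protein ZFP57 binds where it is methylated.
Meg3: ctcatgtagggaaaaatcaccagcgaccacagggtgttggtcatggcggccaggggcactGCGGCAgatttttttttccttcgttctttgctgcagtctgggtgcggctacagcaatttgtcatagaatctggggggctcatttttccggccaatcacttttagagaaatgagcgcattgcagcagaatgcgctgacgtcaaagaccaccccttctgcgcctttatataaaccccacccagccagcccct
Plagl1: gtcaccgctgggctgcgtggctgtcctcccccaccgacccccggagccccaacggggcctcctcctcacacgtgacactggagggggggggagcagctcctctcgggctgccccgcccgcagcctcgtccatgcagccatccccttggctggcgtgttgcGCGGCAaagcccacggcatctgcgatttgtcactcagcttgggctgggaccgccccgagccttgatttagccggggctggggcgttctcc
Ppp1r9a: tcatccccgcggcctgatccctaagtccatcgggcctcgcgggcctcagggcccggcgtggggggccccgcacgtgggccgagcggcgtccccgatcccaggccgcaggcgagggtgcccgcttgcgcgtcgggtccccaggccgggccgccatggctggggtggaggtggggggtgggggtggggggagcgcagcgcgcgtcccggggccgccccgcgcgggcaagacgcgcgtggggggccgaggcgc
Inpp5f: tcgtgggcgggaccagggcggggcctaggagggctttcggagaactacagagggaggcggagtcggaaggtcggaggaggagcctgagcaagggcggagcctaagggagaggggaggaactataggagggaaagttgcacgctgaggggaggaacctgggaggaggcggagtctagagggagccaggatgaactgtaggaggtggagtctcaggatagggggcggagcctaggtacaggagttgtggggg
Slc38a4: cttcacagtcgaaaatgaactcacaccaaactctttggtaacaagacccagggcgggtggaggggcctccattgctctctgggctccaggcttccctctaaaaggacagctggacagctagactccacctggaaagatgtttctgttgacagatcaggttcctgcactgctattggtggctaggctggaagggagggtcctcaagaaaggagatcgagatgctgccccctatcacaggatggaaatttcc

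The Meg3 and Plagl1 windows held 1 match each, and the other 3 held none. RefSeq windows were found for 37 of the 46 genes, 57 windows in all, of which 9 held the motif on either strand (15.8%), against 2850 of 32851 windows of all genes (8.68%). The median number of CG dinucleotides was 10 in the windows of the imprinted genes and 6 in all windows. Ppp1r9a had 35 CG dinucleotides and Slc38a4 had 3. A match is a description of the letters, and occupancy was not measured.

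Some neighbouring genes had the same or nearly the same H3K4me3 counts. Peg10 and Sgce, which start side by side, differed by at most 0.135% in any library, with 52.9 and 50.5 CPM for Peg10 at 48 h, against 55.6 and 61.8 CPM at 0 h (log2 -0.18, adjusted p = 0.145). Peg10 RNA, which fell, and Sgce RNA, which was not called, therefore stood beside nearly the same H3K4me3 counts. Peg3 and Usp29, which also start side by side, differed by at most 1.34%, at 40.1 and 43.8 CPM for Peg3 at 48 h and 45.2 and 44.1 CPM at 0 h, although Usp29 had too little RNA to be tested. Snrpn had 1.26 and 1.96 CPM at 48 h, against 2.88 and 1.99 CPM at 0 h, counts identical to those of Snhg14. Snurf, in the same locus, had 37.7 and 39.4 CPM at 48 h, against 39.8 and 46.8 CPM at 0 h. By a wider rule, 10 of the 46 genes had a neighbour within 5000 bp with counts within 20%. Counts of like size do not show that reads were shared. Igf2r and Airn were among the 10 but were identical in no library, with 672 and 606 counts in 48 h replicate 1. Mirg was included at only 34 and 18 counts at 48 h and 14 and 13 counts at 0 h. No share over all genes was set beside this count.

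As a measure of background, the 5129 genes with 0 RNA counts in all libraries had a median of 1.56 CPM of H3K4me3 and a 90th percentile of 4.37 CPM. The means of 8 imprinted genes lay below that percentile, those of Igf2, Rian, Mirg, Rtl1, Slc22a18, Gnas, Snrpn and Zdbf2. RefSeq lists several starts for Igf2, Gnas, Snrpn and Zdbf2, and which of them the counts cover is not known. A low count therefore does not show that a gene lacks the mark. Gnas had 3.66 and 4.04 CPM of H3K4me3 at 48 h, against 3.97 and 3.41 CPM at 0 h, beside RNA of 640 to 869 CPM. For Rian, 1.5002 and 0.674 CPM at 48 h stood against 1.73 and 0.914 CPM at 0 h.

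Some genes were called in both assays. Plagl1 and Slc38a4 were lower in both. Meg3 and Ppp1r9a were lower in RNA and higher in H3K4me3. Inpp5f was higher in H3K4me3 and not called in RNA, and all 9 genes higher in RNA were not called in H3K4me3. Of these 9, the H3K4me3 groups did not overlap in 6, each higher at 48 h, those of Kcnq1, Igf2r, Mcts2, H13, Trappc9 and Nap1l5, with log2 fold changes of 0.15 to 0.22. Of the 10 genes lower in RNA, H3K4me3 was lower without overlap in 5, those of Plagl1, Slc38a4, Kcnq1ot1, Peg10 and Nnat, higher in Meg3 and Ppp1r9a, and overlapping in H19, Dlk1 and Asb4. Over all genes tested in H3K4me3, 26.5% were higher and 22.8% lower without overlap. The shares among all genes called in RNA were not computed, so these counts are not read as a trait of imprinted genes. H13, for example, had 105 and 101 CPM of H3K4me3 at 48 h, against 91.1 and 93.7 CPM at 0 h (log2 0.15, adjusted p = 0.192). Kcnq1ot1 had 75.8 and 80.7 CPM at 48 h, against 84.2 and 95.5 CPM at 0 h (log2 -0.19, adjusted p = 0.0922). H19 had 6.48 and 8.76 CPM at 48 h, against 8.44 and 8.64 CPM at 0 h (log2 -0.16, adjusted p = 0.681). RNA and chromatin came from different libraries, and only the RNA libraries carry an age.

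**Figure D5:**
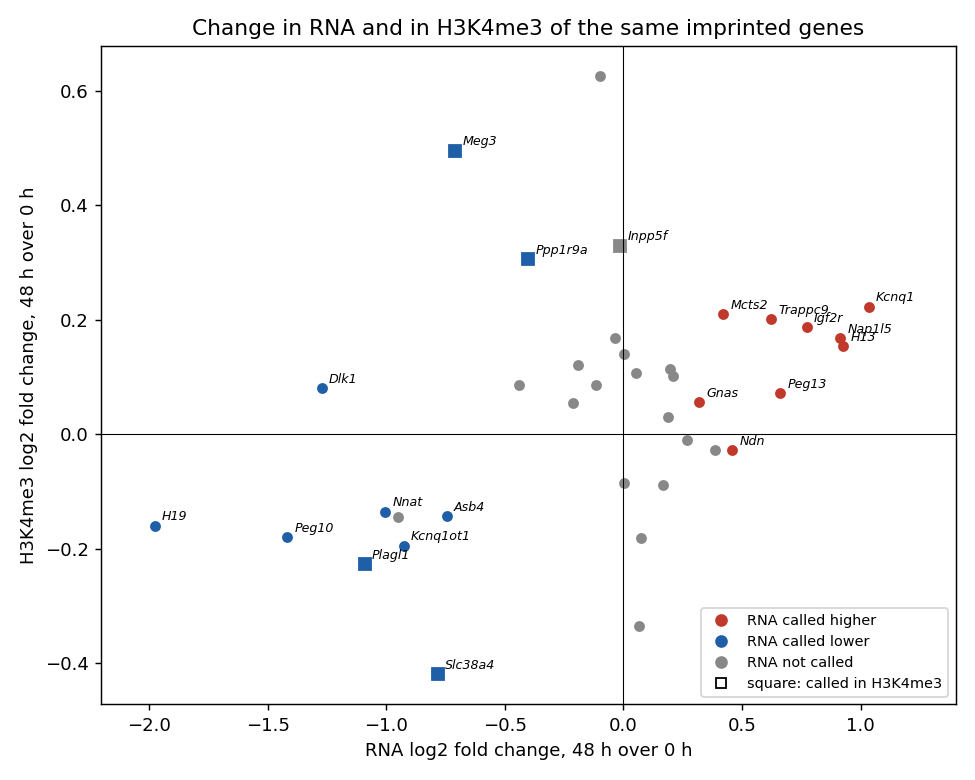
The x axis gives the RNA log2 fold change and the y axis the H3K4me3 log2 fold change, 48 h over 0 h, for the 38 imprinted genes tested in both assays, coloured by RNA call, with squares for genes called in H3K4me3. Meg3 and Ppp1r9a stand at the upper left, Plagl1 and Slc38a4 at the lower left, and the grey point at the top is Mirg, at a log2 fold change of 0.63 in H3K4me3 and not called.

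The proteins that set, keep or erase imprints were counted beside their targets. Of 21 such genes 20 were tested in RNA, and 7 were called (35%), each lower at 48 h. Over all genes 31.8% were called in either direction, 15.8% lower and 16.0% higher. Their median log2 fold change was -0.27 over the 20 and -0.03 over all genes tested. Zfp445, a zinc finger protein that keeps imprints, had 134, 128 and 135 CPM at 48 h, against 168, 189 and 180.1 CPM at 0 h (log2 -0.44, adjusted p = 0.0051). Setdb1, the histone H3K9 methyltransferase of that pathway, had 93.6, 98.7 and 95.5 CPM at 48 h, against 125, 127 and 126 CPM at 0 h (log2 -0.39, adjusted p = 0.00446). The DNA methyltransferase Dnmt3b (-0.56) and its cofactor Dnmt3l (-1.63), the methyltransferases Ehmt1 (-0.25) and Ehmt2 (-0.28) and the H3K4 demethylase Kdm1b (-0.45) were also lower. The fall of Dnmt3l rests on few counts, 6, 9 and 1 at 48 h and 18 in each 0 h library. Dnmt3l, Zfp57 and Dppa3 are known from oocytes, of whose 12 tested markers 6 were lower at 48 h and 6 were not called. Zfp57 had 15.6, 5.44 and 7.75 CPM at 48 h, against 16.1, 17.8 and 14.9 CPM at 0 h, and Dppa3 had 0.871 to 2.99 CPM at 48 h and 2.70 to 3.76 CPM at 0 h; neither was called. The maintenance methyltransferase Dnmt1 was not called (log2 0.03, adjusted p = 0.815). In H3K4me3, 14.3% of the 21 were called, against 8.42% of all genes (6.35% higher and 2.08% lower). The called genes were Dnmt3a (log2 0.53), Tet3 (0.39) and Ctcf (0.26), each higher. None of them was called in RNA, where Dnmt3a lay lower without overlap (log2 -0.29, adjusted p = 0.0792).

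A further list, mostly of genes in or beside the imprinted clusters, was followed too, and 29 of 30 were matched. Whether these genes are themselves imprinted was not tested. Of 18 tested in RNA, 9 were higher and 2 lower (61.1% called, against 31.8% of all genes, with 16.0% higher and 15.8% lower). This list too was chosen with earlier results of these data known, so its share is a description and not a test. Atp10a, a phospholipid flippase beside the Snrpn cluster, had 202, 231 and 212 CPM at 48 h, against 114, 84.4 and 114 CPM at 0 h (log2 1.04, adjusted p = 8.85e-04), and its H3K4me3 was higher as well (log2 0.40, adjusted p = 7.43e-05). Osbpl5, an oxysterol-binding protein beside the Kcnq1 cluster, was lower in RNA (log2 -0.69) and in H3K4me3 (-0.29). Cd81, a tetraspanin of the same region, was higher in RNA (0.81) and in H3K4me3 (0.23). Around Peg10, Pon2 (0.79), Pon3 (0.51), Casd1 (0.29) and Tfpi2 (2.25) were higher in RNA while Peg10, Asb4 and Ppp1r9a were lower. Tfpi2 had only 6, 1 and 8 counts at 0 h. Dcn (1.09), Ddc (1.14) and Herc3 (0.52) were higher, and Begain, next to Dlk1, was lower (-1.14). Dcn, a stromal proteoglycan, had 207, 75.9 and 94.7 CPM at 48 h, against 49.3, 60.5 and 66.9 CPM at 0 h, with its highest value in 48 h replicate 1. The 19 microRNA genes listed from the same clusters had too few counts in the RNA table to be tested.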

How the data were processed

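The authors deposited 1 table of raw counts per assay, with 1 row for each Entrez ID and no visible scaling. Per the submitters' processing notes, the tools were STAR, kallisto, sleuth, Picard and FastQC 0.11.5 for RNA, and for ChIP-seq Trimmomatic, Bowtie2 2.2.9, MACS2 2.2 and ChIPseeker 1.18.0, on mm10. No source used here gives the counting program, the use of strand or the H3K4me3 window. Symbols and coordinates came from RefSeq GRCm38.p6 (24742 of 24809 RNA IDs and 24472 of 24541 H3K4me3 IDs matched). The 48 h libraries of an assay were tested against its 0 h libraries over the whole table with the quasi-likelihood test of edgeR 4.0.16 in R 4.3.3, after filterByExpr and TMM scaling, with p adjusted by Benjamini-Hochberg, called at an adjusted p under 0.05. The SE derives from the test statistic. Replicates differed by a chi-square of 5.16 to 38.5 per degree of freedom in RNA and 1.69 and 4.00 in H3K4me3, beyond sampling noise, so each library counted once. Members and gene lists were chosen with earlier results of these data known, so their shares beside those of all genes are descriptions and not tests. All 46 genes were accounted for, with values in every library for genes called in either assay at a mean of at least 1 CPM and for both genes of a cluster pair where 1 was called. Library values of other genes were added after they were seen. H3K4me3 columns were tied to a group by name, and their numbers only name a library. The input DNA library was not used here. The alternatives were other scalings, filters, DESeq2 1.42.0, a replicate block and leaving out each library. The script was tested on simulated data.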

Additional observations from a re-analysis of the deposited data

How the results depend on the processing

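Of the 38 imprinted genes tested in RNA, 13 were called in each of 13 settings, 11 in some and 14 in none. No gene called in any setting changed sign, while 11 of the 14 never called did. Of the 46 in H3K4me3, 1 was called in each of 11 settings, 8 in some and 37 in none, with the same result for sign, and 18 of the 37 changed sign. By library size only, 4222 genes of the whole RNA table were lower (2282 with TMM) and 26.8% of the called genes were higher (50.2% with TMM). In H3K4me3, library size only gave 945 higher and 862 lower (1554 and 508 with TMM), and 8 imprinted genes called, 5 of them lower. DESeq2 called 865 genes in H3K4me3, 611 higher and 254 lower, and 2 imprinted genes, both higher and 0 lower, with 3 lower at an unadjusted p under 0.05 and 2 lower by edgeR. Leaving out 1 library at a time gave 2882 to 5345 called RNA genes, of which 1228 to 2648 were lower, and 14 to 21 imprinted genes. In H3K4me3 it gave 282 to 2764 called, 159 to 2070 higher and 123 to 694 lower, and 1 to 7 imprinted genes, 1 to 3 higher and 0 to 4 lower. The lowest H3K4me3 counts were without 0 h replicate 1, which leaves 1 library at 0 h that is assumed to vary like the others, and the cause was not tested.

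The deviations of same-numbered libraries from their group means correlated at -0.212, -0.149 and -0.127 in RNA, and at 0.0248 in H3K4me3. These values showed no pairing by number. Deviations cancel within a group, so the correlations are not independent of each other. With 2 libraries per group in H3K4me3, unlike numbers give the mirror value of -0.0248 by construction. Whether libraries shared a batch was not tested. With the number as a replicate block, 16 imprinted genes were called in RNA, without Gnas (adjusted p = 0.095), Ppp1r9a (0.056) and Mcts2 (0.114). In H3K4me3 the block gave 1280 called genes, 908 of them higher, and 4 imprinted genes, 1 of them lower, without Plagl1 (0.113). No RNA library correlated best with the library of its own number.

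At the 8 genes not tested in RNA the counts were too low for a difference to be detectable, and 2 libraries per group limit H3K4me3.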
